A study of Mus musculus with 16 samples.

Results

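The whole aorta of diabetic mice was compared with the whole aorta of non-diabetic mice given RBX, in 4 mice of each group. These 8 arrays were taken by their titles from the 16 of the series, in which the other 8 come from diabetic mice given RBX and from untreated non-diabetic mice. Every mouse lacked apolipoprotein E (genotype APOE-/-), ate a high fat diet for 10 weeks from 8 weeks of age, and gave its aorta at 18 weeks of age. The diabetic group had received STZ (streptozotocin), which destroys pancreatic beta cells, at 6 weeks of age, and no RBX. The non-diabetic RBX group had no STZ and ate the diet with RBX (ruboxistaurin), a drug that inhibits the beta form of protein kinase C, at a dose that the labels leave out. The comparison therefore changes 2 things at once, diabetes and the drug, and their shares in any difference cannot be told apart within these 8 arrays. Both groups differ from untreated non-diabetic aorta, so the question was what tells them apart from each other.

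Protein kinase C beta is a signalling enzyme that the lipid messenger diacylglycerol switches on. High glucose raises this messenger in vessels, and the enzyme is studied as a link between diabetes and vascular disease. The aortic wall consists mostly of contractile smooth muscle in the media, with a lining of endothelium and an adventitia of fibroblasts, resident macrophages and nerves, and fat adheres to its outer side. In mice without apolipoprotein E, lipid-laden macrophages and T cells enter the intima, and smooth muscle cells can lose contractile proteins and make matrix instead. Heat shock chaperones, which refold damaged proteins, are switched on together by heat shock factors that bind repeated units in the promoters of their genes.

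The values were MAS5 signals on a linear scale, and 1 probe set was read for each of 11042 genes. Defining markers of smooth muscle (Acta2, Myh11, Tagln, Cnn1), endothelium (Cdh5, Pecam1, Tie1) and macrophages (Cd68, Csf1r, Adgre1) all passed the signal filter. Markers of fibroblasts (Pdgfra, Dcn, Dpt), neutrophils (S100a8, S100a9) and white and brown adipocytes (Adipoq, Ucp1) passed the filter too. The filter, 381.5, applied to the mean log2 over all 16 arrays. Markers of lymphocytes (Cd3e, Cd3g, Cd79a), Myh6 and Tnni3 of heart, Ckm and Myh4 of skeletal muscle, Hba-a1 of red cells and Msln of mesothelium lay below it. Msln still averaged 451 ± 172 in diabetic and 897 ± 315 in non-diabetic RBX mice, both over 381.5. Cd3e (478), Cd3g (431), Ckm (449) and Hba-a1 (510) exceeded that signal in the non-diabetic RBX mean alone. Tnnt2 of heart (1326 ± 426 in diabetic and 2298 ± 1038 in non-diabetic RBX mice) and Acta1 of skeletal muscle (542.5 ± 122 and 519.9 ± 101 in the same order) lay above the filter and did not pass the test. Neither did Alas2 of red cells (1272 ± 483.5 and 966 ± 865) and Upk3b of mesothelium (1349.9 ± 998 and 3109 ± 1553), also above it. Of 7 mesothelial and epithelial genes 1 fell, Muc16, with a median of -0.96, and of 5 striated muscle genes 1 rose, Actn2. The groups also differed as arrays. The log2 signal of the cre hybridisation control, which is added to every sample before hybridisation, averaged 17.5 ± 0.205 in diabetic and 18.4 ± 0.372 in non-diabetic RBX mice (SD, n = 4 each). For Actb, the log2 ratio between its 3' and its 5' control probe set, which rises with RNA degradation or incomplete labelling, averaged 1.34 ± 0.174 in diabetic and 2.08 ± 0.393 in non-diabetic RBX mice. Low-signal probe sets made up 10.8% ± 0.220 in diabetic and 8.14% ± 1.57 in non-diabetic RBX mice, and the scores on the first principal component, with 30.1% of the variance, averaged -5.07 ± 6.18 and 30.4 ± 14.5 in the same order. In each of these 4 measures the groups did not overlap (exact two-sided permutation p = 0.0286, the smallest that 70 assignments can give, adjusted 0.0429 over 6 measures). The Gapdh ratio (exact p = 0.286) and the second component (exact p = 0.371) did not pass.

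**Figure D1:**
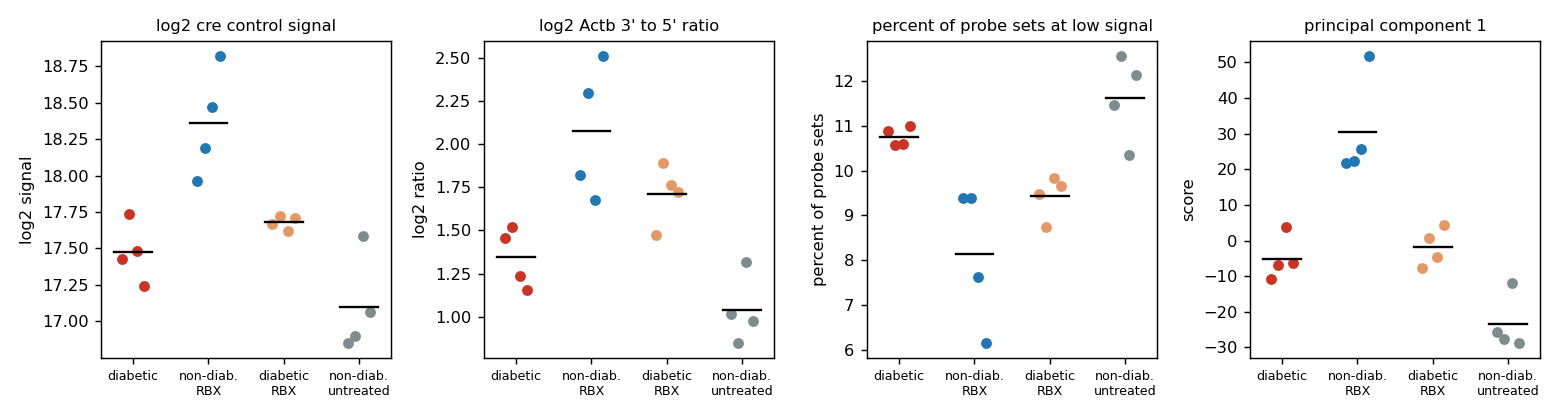
Array measures by group: log2 cre control signal, log2 ratio of the Actb 3' to 5' control probe sets, percent of probe sets at low signal, and score on the first principal component (arbitrary units). Each point is 1 array and each bar a group mean; the 4 diabetic arrays lie below the 4 non-diabetic RBX arrays in all panels but the third, where they lie above.

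Between diabetic and non-diabetic RBX aorta, 748 genes were higher and 599 lower in the diabetic mice out of 11042 tested (limma, Benjamini-Hochberg adjusted p under 0.05), which is 12.2% of the genes, 6.77% higher and 5.42% lower. Every list count below is to be read beside these shares of all genes. Heat shock chaperones, contractile smooth muscle genes and vascular channels and receptors were among the higher genes. Platelet genes, MHC class II genes, adventitial fibroblast genes and genes of fatty acid synthesis were among the lower ones. Of the changes, 96 rises and 80 falls were over 2-fold, and the median size was 0.57 on the log2 scale. The 4 diabetic mice lay beyond all 4 non-diabetic RBX mice in 1096 of the 1347 genes called, and in 15.4% of all genes (8.04% higher and 7.35% lower). The median log2 difference of all genes was -0.0176.

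After quantile normalization 676 genes rose and 614 fell, and 1135 of the 1347 kept their call. Among the fits with 1 array left out, the counts were lowest without diabetic mouse 2 for rises (460, with 380 falls) and without diabetic mouse 4 for falls (365, with 506 rises), against 495 and 442 without diabetic mouse 1 and 507 and 450 without non-diabetic RBX mouse 4. With log2 cre as a covariate 3 genes rose and 1 fell. Of the 1347 genes, 1308 kept their sign in that fit, while their median size was 0.43 against 0.57 without the covariate and their median SE 0.219 against 0.137. With the Actb ratio as a covariate 13 rose and 5 fell, and 1335 kept their sign. Of 31 lists, the median changed sign in 7 with the cre covariate and in 9 with the Actb ratio, and brown adipocyte, oxidative phosphorylation, cholesterol, immediate early and unfolded protein response genes were among both. The part of the array measures in the differences was not tested further, and every group of genes below was compared on the same arrays.

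**Figure D2:**
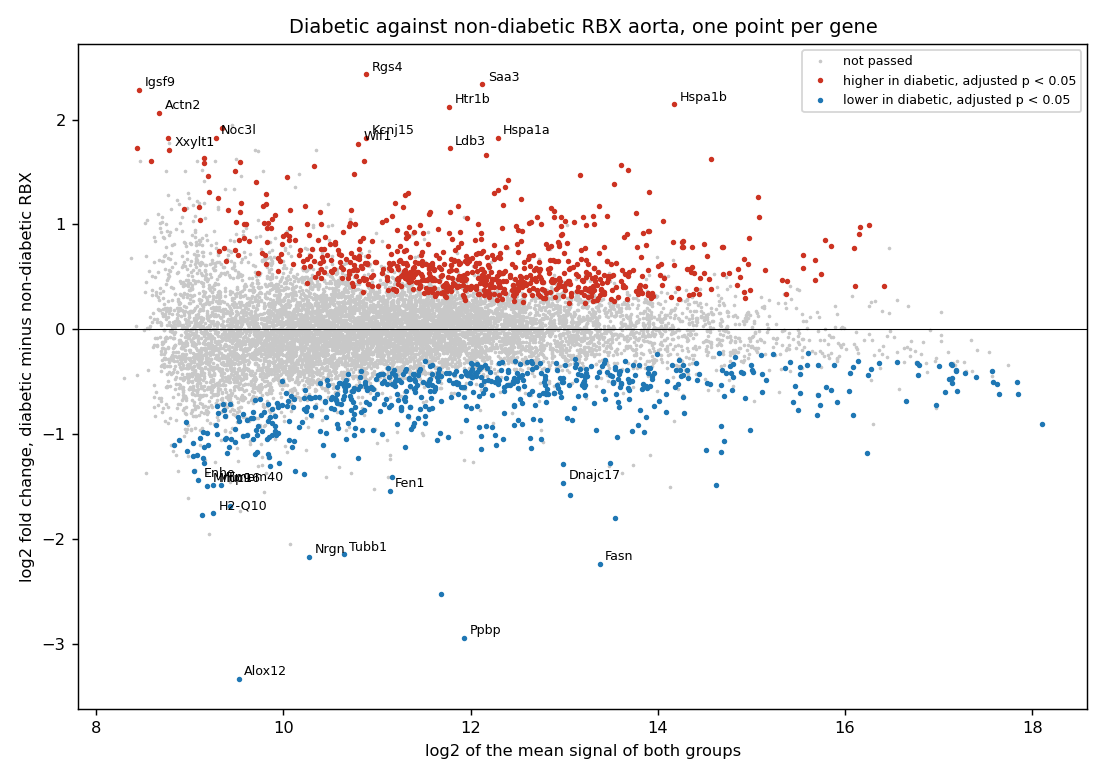
Each point is 1 of 11042 genes: the x axis gives log2 of the mean signal of both groups, the y axis the log2 fold change of diabetic minus non-diabetic RBX aorta. Red genes were higher and blue genes lower in diabetic mice at an adjusted p under 0.05, and the 24 genes with a name have the largest changes among those whose groups did not overlap.

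The largest rise was that of Rgs4, a regulator that shortens G protein signals in smooth muscle. Its signal was 3230.1, 3385, 2154 and 3897 in the diabetic mice, against 605, 631, 918 and 309 in the non-diabetic RBX mice (log2 fold change 2.43, SE 0.32, adjusted p = 0.000302). All diabetic mice lay above all non-diabetic RBX mice. Saa3, an acute phase serum amyloid gene, measured 7606, 10305, 5631 and 5828 in the diabetic mice, against 969, 2950.1, 1602 and 859.6 in the non-diabetic RBX mice (log2 fold change 2.34, SE 0.36, adjusted p = 0.000755), again without overlap. Htr1b, a serotonin receptor of vascular muscle, was higher by 2.12 (adjusted p = 0.000309), the potassium channel Kcnj15 by 1.82 (adjusted p = 0.000637) and the secreted Wnt inhibitor Wif1 by 1.77 (adjusted p = 4.4e-05). Another probe set of Htr1b gave 0.26 (unadjusted p = 0.385). The other leading rises included the low-signal genes Igsf9 (2.28, adjusted p = 0.0197), Actn2, an actinin of striated muscle (2.07, adjusted p = 0.0247), Noc3l (1.82, adjusted p = 0.0151) and Xxylt1, a xylosyltransferase (1.71, adjusted p = 0.0173), whose non-diabetic RBX means lay under the signal filter of 381.5. Another probe set of Noc3l gave 0.48 (unadjusted p = 0.0835). The remaining 3 of the 12, Hspa1b, Hspa1a and Ldb3, are described with their groups. Leaving out 1 array ended the call of Igsf9 (diabetic 2 and RBX 2, 4), Actn2 (diabetic 2, 3 and RBX 2, 4) and Xxylt1 (diabetic 1), where numbers are those of the mice in each group.

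The largest fall was that of Alox12, the arachidonate lipoxygenase of platelets. It measured 313, 276, 153 and 15.4 in the diabetic mice, against 1296, 1047, 774 and 2011 in the non-diabetic RBX mice (log2 fold change -3.33, SE 0.69, adjusted p = 0.00484). All 4 diabetic values lay under that filter and all non-diabetic RBX values above it. Nrgn, which encodes the calmodulin-binding protein neurogranin, measured 426, 428, 590.3 and 309 in the diabetic mice, against 2576, 1149, 1719 and 2701 in the non-diabetic RBX mice (log2 fold change -2.17, SE 0.31, adjusted p = 0.000328). The DnaJ family gene Dnajc17 averaged 4249.5 ± 319 in diabetic and 12002 ± 3399 in non-diabetic RBX mice (SD, n = 4 each), a difference of -1.46 (adjusted p = 0.00141), with non-diabetic RBX mouse 4 far above the rest. Also in the leading falls were the class I gene H2-Q10 (-1.75, adjusted p = 0.0487), Fen1, a nuclease of DNA replication (-1.54, adjusted p = 0.028), the gelatinase Mmp9 (-1.49, adjusted p = 0.0497) and the mucin Muc16 (-1.49, adjusted p = 0.0253). With them fell Tmem40 (-1.48, adjusted p = 0.0155) and Enho, which encodes the secreted peptide adropin (-1.44, adjusted p = 0.0109). The diabetic means of H2-Q10 (287), Mmp9 (374), Muc16 (353), Tmem40 (362) and Enho (315) lay under the filter too, so these fold changes rest on low signals. Another probe set of Fen1 gave 0.22 (unadjusted p = 0.431). The call ended without 1 array for H2-Q10 (diabetic 1, 3, 4 and RBX 1, 2, 4), Fen1 (diabetic 1 and RBX 4), Mmp9 (diabetic 1, 4 and RBX 1, 2, 3, 4) and Muc16 (diabetic 1, 2 and RBX 2), and with quantile normalization for H2-Q10 and Mmp9.

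Of the 22 measured heat shock chaperones and their partners 12 rose and none fell, against 6.77% of all genes higher, with a median log2 difference of 0.49. The inducible Hsp70 genes led. Hspa1b measured 22169.9, 25615, 33070.4 and 40479.6 in the diabetic mice, against 5336, 7230.4, 7278 and 7052 in the non-diabetic RBX mice (log2 fold change 2.15, SE 0.17, adjusted p = 2.6e-06). Every diabetic mouse lay far above every non-diabetic RBX mouse, and the other groups averaged 9802 ± 949 in diabetic RBX and 15885 ± 3712 in untreated non-diabetic mice. Hspa1b was called in all 22 alternatives run. Hspa1a, a neighbouring gene of almost the same sequence whose probe set may read both, measured 6238, 5725, 10447 and 9014 in the diabetic mice, against 2329, 2017, 2262 and 2013 in the non-diabetic RBX mice (log2 fold change 1.82, SE 0.19, adjusted p = 4.4e-05). The Hsp40 co-chaperone Dnajb4 measured 21019.7, 16992, 14382 and 22655 in the diabetic mice, against 5693, 5648, 6209 and 7517 in the non-diabetic RBX mice (log2 fold change 1.57, SE 0.18, adjusted p = 0.000117), with no overlap.

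Among the other members that rose, Hsph1, an Hsp110 family chaperone, averaged 8466 ± 1245 in diabetic and 4165 ± 295 in non-diabetic RBX mice (SD, n = 4 each; log2 fold change 1.02, SE 0.14, adjusted p = 0.000370). Chordc1, a partner of Hsp90, differed by 0.80 (adjusted p = 0.000337) and the Hsp40 gene Dnaja1 by 0.83 (adjusted p = 0.00145). The constitutive Hspa8 (-0.02, adjusted p = 0.945), the mitochondrial chaperonin Hspd1 (0.16, adjusted p = 0.26) and the small heat shock gene Cryab (-0.0039, adjusted p = 0.987), chosen after their values were seen, did not pass. The level of the list, taken as the mean log2 of its members about the mean of the 8 arrays, ranged from 0.22 to 0.43 in diabetic and -0.34 to -0.24 in non-diabetic RBX mice. With each array left out, 9 to 13 members rose and at most 1 fell, which was without diabetic mouse 2 and without non-diabetic RBX mouse 4. With the cre covariate the median was 0.32 and 1 rose, and with the Actb ratio 0.35 and 3 rose.

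Promoters are shown for Hspa1b, the chaperone gene with the largest rise, and for Hsph1, whose promoter holds a longer run of heat shock units. A match to the heat shock element was GAANNTTC or TTCNNGAA on either strand, so that overlapping matches join into a longer run, and capitals mark every match. Sequences run from 250 bases before to 50 after the gene start, from RefSeq on GRCm38.p6, and lie at chr17:34959189-34959488, minus strand, and chr5:149636266-149636565, minus strand. Both are 5′ to 3′ on the strand of the gene.
Hspa1b: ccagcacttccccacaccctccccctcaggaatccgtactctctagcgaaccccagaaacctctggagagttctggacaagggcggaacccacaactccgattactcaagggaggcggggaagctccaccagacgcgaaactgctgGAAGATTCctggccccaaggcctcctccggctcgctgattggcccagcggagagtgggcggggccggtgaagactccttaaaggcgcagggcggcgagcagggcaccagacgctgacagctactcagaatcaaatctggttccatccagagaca
Hsph1: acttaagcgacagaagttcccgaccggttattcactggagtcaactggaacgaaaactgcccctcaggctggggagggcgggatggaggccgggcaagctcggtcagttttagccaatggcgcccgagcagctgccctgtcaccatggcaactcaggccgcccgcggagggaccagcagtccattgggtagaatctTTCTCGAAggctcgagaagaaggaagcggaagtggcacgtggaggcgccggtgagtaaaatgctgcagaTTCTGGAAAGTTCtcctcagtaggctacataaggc
The promoter of Hspa1b held 1 match and that of Hsph1 held 3. At least 1 match was found in 8 of the 11 risen chaperone genes with a promoter known here and in 12 of 19 tested ones, and in 15.1% of 32851 promoters of all genes. A run of 3 units, as in Hsph1, was found in 2 of those 11 risen genes and 4 of those 19 tested ones. Hspd1, which did not pass, was among the 4, and 0.603% of all promoters held such a run. The run in Hsph1 ends 28 bases after the gene start. A listed gene counted if any of its starts held a match, while the share of all promoters counts each start on its own. A match describes letters and does not show that a factor bound there.

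Contractile smooth muscle genes had a median log2 difference of 0.60 over 26 members, of which 13 rose and 1 fell. The abundant actin and transgelin genes did not pass, with Acta2 at -0.21 (adjusted p = 0.214) and Tagln at 0.22 (adjusted p = 0.23). Myh11, the smooth muscle myosin heavy chain, measured 84603, 79288, 65152 and 59199 in the diabetic mice, against 45877, 54859.6, 37788 and 25759.9 in the non-diabetic RBX mice (log2 fold change 0.85, SE 0.17, adjusted p = 0.00389). The diabetic mice all lay above the non-diabetic RBX mice. Myocd, the coactivator of serum response factor that drives the contractile programme, measured 9475, 8460.2, 8049 and 10679.7 in the diabetic mice, against 5003, 4076, 5358 and 3943 in the non-diabetic RBX mice (log2 fold change 0.9998, SE 0.16, adjusted p = 0.000769). It averaged 12412 ± 2393 in diabetic RBX and 9569 ± 1726 in untreated non-diabetic mice, and it did not pass with the mean of its probe sets.

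The PDZ and LIM protein gene Ldb3 measured 6181, 5195, 4203 and 5726 in the diabetic mice, against 2116, 2299, 1439 and 922 in the non-diabetic RBX mice (log2 fold change 1.73, SE 0.23, adjusted p = 0.000302), but 1 of its 2 other probe sets gave -0.10 (unadjusted p = 0.827) and the call ended with the mean of them. The integrin Itga8 differed by 0.98 (adjusted p = 0.00171), the myosin light chain kinase family gene Mylk4 by 1.12 (adjusted p = 0.00341) and the regulatory light chain Myl9 by 0.78 (adjusted p = 0.00413). Tpm2, a tropomyosin chosen after its value was seen, was the member that fell (-0.32, adjusted p = 0.0216). No member fell after quantile normalization, with no filter, with the mean of probe sets, with the 2 groups fitted alone, with either covariate, or without diabetic mouse 4 or non-diabetic RBX mouse 4. List levels ranged from 0.18 to 0.41 in diabetic and -0.72 to 0.11 in non-diabetic RBX mice, and 11 to 16 members rose with each array left out. The median without non-diabetic RBX mouse 4 was 0.38. With the cre covariate it was 0.02 and none passed, and with the Actb ratio 0.35 and none passed. In whole aorta fewer cells of a type and less RNA per cell cannot be told apart, here and in every group below.

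The CArG box, the binding motif of serum response factor, was searched on both strands of the same promoters. It was found in 2 of the 9 risen contractile genes with a promoter known here, Myl9 and Ldb3, and these were also the 2 among 21 tested ones. The box was in 1.63% of all promoters, a share that counts each start on its own, while a listed gene counted if any of its starts held a match. Both are shown with the box in capitals, at chr2:156775214-156775513, plus strand, and chr14:34588558-34588857, minus strand.
Myl9: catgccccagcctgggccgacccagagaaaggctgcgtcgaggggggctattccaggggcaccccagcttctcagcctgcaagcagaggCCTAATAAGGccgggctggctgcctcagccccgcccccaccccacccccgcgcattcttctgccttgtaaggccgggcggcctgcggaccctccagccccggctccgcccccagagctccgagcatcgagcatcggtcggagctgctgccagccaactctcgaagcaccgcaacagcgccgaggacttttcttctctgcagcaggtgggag
Ldb3: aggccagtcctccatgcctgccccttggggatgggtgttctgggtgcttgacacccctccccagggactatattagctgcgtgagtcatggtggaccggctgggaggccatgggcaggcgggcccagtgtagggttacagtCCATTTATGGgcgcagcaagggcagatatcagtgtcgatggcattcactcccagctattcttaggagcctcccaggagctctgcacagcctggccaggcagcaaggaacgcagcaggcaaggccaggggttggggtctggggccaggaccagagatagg
Each promoter holds 1 match, which again describes letters alone.

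Of 25 channels and receptors of the vessel wall 11 rose and none fell, with a median of 0.64. Besides Rgs4, the related G protein regulator Rgs5 averaged 48841 ± 18054 in diabetic and 19884 ± 4929.9 in non-diabetic RBX mice (SD, n = 4 each; log2 fold change 1.26, SE 0.24, adjusted p = 0.00323). Gucy1b1, a subunit of the nitric oxide receptor guanylate cyclase, differed by 1.07 (adjusted p = 0.00239) and Atp2a2, the calcium pump of the sarcoplasmic reticulum, by 0.59 (adjusted p = 0.00376). The sodium-calcium exchanger Slc8a1 rose by 0.89 (adjusted p = 0.00422) and Abcc9, a subunit of the ATP-sensitive potassium channel, by 0.79 (adjusted p = 0.00911). List levels ranged from 0.18 to 0.51 in diabetic and -0.69 to -0.11 in non-diabetic RBX mice, and the median was 0.20 with the cre covariate, where none passed.

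Of 25 fibrillar collagen and matrix genes 6 rose and none fell (median 0.21), and 10 rose after quantile normalization. Versican (Vcan), a large proteoglycan of the intima, measured 10042, 8415, 6533 and 8137 in the diabetic mice, against 3079.9, 4881, 3924 and 2440.2 in the non-diabetic RBX mice (log2 fold change 1.24, SE 0.18, adjusted p = 0.000440). Periostin (Postn) differed by 0.90 (adjusted p = 0.000817), the crosslinking enzyme Lox by 0.94 (adjusted p = 0.00161) and tenascin C (Tnc) by 1.07 (adjusted p = 0.0018), all without overlap. Col6a3 (0.78, adjusted p = 0.0283) and Col5a2 (0.58, adjusted p = 0.0361) passed with overlapping groups. Without 1 array the calls ended for Col6a3 (diabetic 1, 2 and RBX 1, 4) and Col5a2 (diabetic 2, 3, 4 and RBX 1, 2, 4).

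Of 25 genes of TGF beta signalling 6 rose and 5 fell, with a median of -0.07. The ligand Tgfb2 (0.94, adjusted p = 0.0128), the latent TGF beta binding protein Ltbp1 (1.01, adjusted p = 0.00181), the target Ccn2 (0.99, adjusted p = 0.00894) and the repressor Skil (0.42, adjusted p = 0.01) rose. Tgfbi, a secreted target of the pathway, fell. It measured 40376, 37153, 39231 and 36636 in the diabetic mice, against 77473, 60419, 62492 and 72180.4 in the non-diabetic RBX mice (log2 fold change -0.82, SE 0.10, adjusted p = 0.000183), so that all diabetic mice lay below all non-diabetic RBX mice. Smad4, the shared mediator, fell by 0.39 on the log2 scale (adjusted p = 0.00902), but its 2 other probe sets gave 0.31 (unadjusted p = 0.0524) and -0.0041 (unadjusted p = 0.965), and the call ended with the mean of probe sets. Without diabetic mouse 1, 3 genes of the pathway fell. Among 19 metalloproteinases and inhibitors 4 rose and 4 fell. Adamts1 (0.91, adjusted p = 0.000667) and Timp1 (0.94, adjusted p = 0.0323) were higher and Mmp23 (-0.69, adjusted p = 0.000199) and Timp4 (-1.03, adjusted p = 0.0415) lower. Another probe set gave -0.02 (unadjusted p = 0.923) for Mmp23 and -0.445 (unadjusted p = 0.142) for Timp4. Adamts4 passed with overlapping groups (1.58, adjusted p = 0.0155). Timp2 fell (-0.37, adjusted p = 0.0151), while 2 of its 4 other probe sets gave 0.76 (unadjusted p = 0.00969) and 0.29 (unadjusted p = 0.141) and the call ended with quantile normalization. Adamts4 had a non-diabetic RBX mean of 319, under the filter. Leaving out 1 array ended the calls of Timp1 (diabetic 2, 4 and RBX 1, 4), Timp2 (diabetic 1), Timp4 (diabetic 2, 3, 4 and RBX 2, 4) and Adamts4 (diabetic 4).

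Platelet genes were lower in the diabetic mice. Of 9 measured members 7 fell and none rose, against 5.42% of all genes lower, with a median of -1.23. The platelet chemokine Ppbp measured 706, 661, 1566 and 643 in the diabetic mice, against 7258, 6357, 3291 and 10832 in the non-diabetic RBX mice (log2 fold change -2.94, SE 0.42, adjusted p = 0.000370). Diabetic mouse 3 was the highest of its group and still below every non-diabetic RBX mouse. Pf4, platelet factor 4, which some macrophages also express, measured 7546, 8203, 9031 and 6910.3 in the diabetic mice, against 18406, 14834, 13396 and 18503 in the non-diabetic RBX mice (log2 fold change -1.03, SE 0.13, adjusted p = 0.000216). The platelet tubulin Tubb1 (-2.15, adjusted p = 0.00284), the receptor subunits Gp1bb (-1.20, adjusted p = 0.000462) and Itga2b (-1.23, adjusted p = 0.0041) and the receptor Treml1 (-1.38, adjusted p = 0.00998) fell as well. Another probe set of Gp1bb gave -0.42 (unadjusted p = 0.172). Itgb3, a beta 3 integrin chosen after its value was seen, did not pass (-0.12, adjusted p = 0.598). List levels ranged from -1.26 to -0.25 in diabetic and 0.31 to 1.24 in non-diabetic RBX mice. The count was 6 to 8 with each array left out, and with the cre covariate the median was -0.96 with none passing.

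Of the 4 groups the non-diabetic RBX mice had the highest mean of Ppbp, Pf4 and Tubb1. The other groups averaged 1949.8 ± 1329 in diabetic RBX and 2875 ± 1296 in untreated non-diabetic mice for Ppbp, and 8835 ± 1011 in diabetic RBX and 6441 ± 926 in untreated non-diabetic mice for Pf4. The red cell marker Alas2 did not pass (1.35, adjusted p = 0.328). Hba-a1, below the filter and so not tested, averaged 227 ± 121 in diabetic and 510 ± 221 in non-diabetic RBX mice. Of 4 tested erythroid genes 1 lay above 0 and 3 below, with a median of -0.06, and 0 passed. The part of blood left in the vessels in these differences was not tested.

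Antigen presentation genes were lower. Of 8 measured MHC class II and presentation genes 5 fell, with a median of -0.61, and none rose. The class II chain H2-Aa measured 31990.1, 35844, 34958 and 33312 in the diabetic mice, against 56157, 55682, 53482 and 68420.3 in the non-diabetic RBX mice (log2 fold change -0.77, SE 0.10, adjusted p = 0.000216). H2-Ab1 measured 7199, 9942, 9694 and 9815 in the diabetic mice, against 17554, 17396, 16326 and 20088 in the non-diabetic RBX mice (log2 fold change -0.97, SE 0.13, adjusted p = 0.000258). In both genes every diabetic mouse lay below every non-diabetic RBX mouse. H2-Eb1 (-0.62, adjusted p = 0.0018), the invariant chain Cd74 (-0.60, adjusted p = 0.00181) and the peptide loading gene H2-DMa (-0.71, adjusted p = 0.00712) fell too. The transactivator Ciita, chosen after its value was seen, did not pass (-0.21, adjusted p = 0.7). The count was 5 or 6 with each array left out, and with the cre covariate the median stayed at -0.56 though none passed.

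Of 27 macrophage and foam cell genes 1 fell, Csf1r (-0.34, adjusted p = 0.0419), with a median of -0.12 and list levels of -0.49 to 0.18 in diabetic and -0.34 to 0.40 in non-diabetic RBX mice. Of the 2 other probe sets of Csf1r 1 gave 0.05 (unadjusted p = 0.72), and the call ended with quantile normalization and without diabetic 1, 2, 4 and RBX 1, 3, 4. Of 16 resident macrophage genes 4 fell and 1 rose. Besides Pf4, the transglutaminase F13a1 (-0.77, adjusted p = 0.0106), the alternative activation gene Retnla (-1.80, adjusted p = 0.0159) and the scavenger receptor Stab1 (-0.60, adjusted p = 0.0283) fell. The chemokine Ccl8 rose (0.98, adjusted p = 0.00556), with overlapping groups, and so did the adhesion molecule Vcam1, which averaged 33156 ± 1828 in diabetic and 19859.8 ± 5498 in non-diabetic RBX mice (SD, n = 4 each; log2 fold change 0.78, SE 0.16, adjusted p = 0.00402). These were the 2 of 32 chemokine, cytokine and adhesion genes that rose (6.25%, against 6.77% of all genes), and the list median was -0.09. Without non-diabetic RBX mouse 2, 4 of them rose. Of 34 interferon response genes 1 fell (2.94%, against 5.42% of all genes), the immunoproteasome subunit Psmb9 (-0.90, adjusted p = 0.00516). The median of these genes was -0.06, and 6 of them fell without diabetic mouse 3. Among 6 neutrophil genes Lcn2, an iron-scavenging lipocalin, rose (0.99, adjusted p = 0.0135) and Mmp9 fell. Lcn2 went against the rest of the list, of which 5 genes lay below 0, and the list median was -0.50. The defining markers S100a8 (-0.57, adjusted p = 0.151) and S100a9 (-0.68, adjusted p = 0.148) were lower without overlap but did not pass. The T and NK cell list held 6 measured genes, of which Thy1, also made by fibroblasts, fell (-0.72, adjusted p = 0.0217). Without 1 array the calls ended for Retnla (diabetic 4), Stab1 (diabetic 1, 2, 4 and RBX 1, 4) and Thy1 (diabetic 1, 4 and RBX 1, 4).

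Of 16 adventitial fibroblast genes 6 fell and none rose (median -0.26). Pi16, a marker of adventitial fibroblast progenitors, measured 17407, 25493, 25271 and 20377 in the diabetic mice, against 52038, 36529.8, 41517 and 41530.3 in the non-diabetic RBX mice (log2 fold change -0.96, SE 0.12, adjusted p = 0.000216). The groups did not overlap. The globin Cygb (-0.92, adjusted p = 0.00422), the actin-severing Gsn (-0.59, adjusted p = 0.00368), the matrix gene Dpt (-0.61, adjusted p = 0.0134), Thy1 and Dpep1 (-0.58, adjusted p = 0.0353) fell. Besides Dpt, the defining fibroblast markers Pdgfra (-0.11, adjusted p = 0.795) and Dcn (-0.30, adjusted p = 0.164) did not pass. Pi16 did not pass with the mean of its probe sets, Gsn not after quantile normalization, and the other probe set of Dpep1 gave 0.13 (unadjusted p = 0.559). The call of Dpep1 ended without diabetic 2, 3, 4 and RBX 1, 4. List levels ranged from -0.36 to 0.03 in diabetic and -0.31 to 0.59 in non-diabetic RBX mice and so overlapped. The median was -0.09 without non-diabetic RBX mouse 1 and -0.48 without non-diabetic RBX mouse 4, and 1 member rose after quantile normalization. With the covariates it was -0.53 (cre, none fell) and -0.48 (Actb ratio, 1 fell). Among 24 endothelial genes Plvap, of the fenestral diaphragm (-0.63, adjusted p = 0.0221), and Egfl7 (-0.54, adjusted p = 0.0413) fell, 8.33% of the list against 5.42% of all genes. Cdh5 (-0.28, adjusted p = 0.502) and Pecam1 (0.11, adjusted p = 0.768) did not pass. Without 1 array the calls ended for Plvap (diabetic 1, 2 and RBX 4) and Egfl7 (diabetic 1, 2 and RBX 2, 4), and 5 endothelial genes fell without diabetic mouse 3.

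Insulin and IGF signalling genes numbered 25, of which 4 fell and 1 rose. Igfbp5, a binding protein of insulin-like growth factors, measured 15104, 18265, 21017 and 14675 in the diabetic mice, against 46329, 38671, 28025 and 32391 in the non-diabetic RBX mice (log2 fold change -1.06, SE 0.14, adjusted p = 0.000258). All diabetic mice were below all non-diabetic RBX mice. Igfbp6 (-0.61, adjusted p = 0.0333), Igf2 (-0.66, adjusted p = 0.0486) and the transcription factor Foxo1, which insulin holds inactive (-0.38, adjusted p = 0.0208), fell and Igfbp7 rose (0.41, adjusted p = 0.0198). Their calls ended without 1 array for Igfbp6 (diabetic 2, 3, 4 and RBX 1, 2), Igf2 (diabetic 1, 2, 4 and RBX 1, 2, 3), Foxo1 (diabetic 2, 4 and RBX 1) and Igfbp7 (diabetic 2, 4 and RBX 4), and that of Igf2 with quantile normalization.

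Of 22 genes of fatty acid and triglyceride synthesis 7 fell and none rose (median -0.72). The levels of this list overlapped, at -0.764 to -0.087 in diabetic and -0.255 to 0.586 in non-diabetic RBX mice. Fasn, the fatty acid synthase, measured 3487, 3604, 3744 and 3222 in the diabetic mice, against 25227, 14191, 9487 and 22300.1 in the non-diabetic RBX mice (log2 fold change -2.24, SE 0.41, adjusted p = 0.00239). The diabetic mice lay close together below all non-diabetic RBX mice, and the other groups averaged 9379 ± 8678 in diabetic RBX and 9901 ± 2489.6 in untreated non-diabetic mice. Tkt of the pentose phosphate pathway (-0.70, adjusted p = 0.015), the phosphatidate phosphatase Lpin1 (-0.91, adjusted p = 0.0187), Agpat2 (-1.05, adjusted p = 0.0274), Thrsp (-1.59, adjusted p = 0.0337) and the carboxylase Acaca (-0.74, adjusted p = 0.035) fell too. Srebf1, chosen after its value was seen, did not pass (0.08, adjusted p = 0.755). With the cre covariate the median was -0.45 and with the Actb ratio -0.06, and none fell in either. The count depended on single arrays, with 2 without diabetic mouse 4, 2 without non-diabetic RBX mouse 4, 3 without non-diabetic RBX mouse 1 or 2 and 12 without non-diabetic RBX mouse 3.

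Adipocyte markers were read on the same arrays. Of 13 white adipocyte genes 4 fell, Car3 (-1.18, adjusted p = 0.0348), the lipid droplet gene Cidec (-1.41, adjusted p = 0.0399), Dgat2 (-1.14, adjusted p = 0.0419) and resistin (Retn) (-1.13, adjusted p = 0.0489), with overlapping groups in each. The median was -0.75 and list levels ranged from -1.23 to 0.10 in diabetic and -0.56 to 0.95 in non-diabetic RBX mice. None of the 4 passed without diabetic mouse 4 or non-diabetic RBX mouse 1, 2 or 4, with the mean of probe sets, without an intensity trend, with robust variance, with the 2 groups fitted alone or with the cre covariate, and Car3 and Retn did not pass with quantile normalization. By comparison, 10 white adipocyte genes fell without non-diabetic RBX mouse 3. Adipoq (-0.63, adjusted p = 0.345) and Ucp1 (-1.50, adjusted p = 0.166) did not pass. Elovl3 was the 1 of 12 brown adipocyte genes that fell (-1.31, adjusted p = 0.0362), and its call ended without diabetic 2, 3, 4 and RBX 1, 4. Of 25 fatty acid oxidation genes 1 fell, the thioesterase Acot2 (-0.66, adjusted p = 0.0101), though 24 lay below 0 and the median was -0.51. Without non-diabetic RBX mouse 3, 17 of them fell, and 3 brown adipocyte genes. Ndufv1 was the 1 of 30 oxidative phosphorylation genes that fell (-0.56, adjusted p = 0.0169), against 13 without non-diabetic RBX mouse 3, 3 without diabetic mouse 1, 2 without non-diabetic RBX mouse 1 and none without mouse 4 of either group. With the Actb ratio as a covariate the medians changed sign, to 0.20 for white adipocyte, 0.70 for brown adipocyte, 0.28 for fatty acid oxidation and 0.19 for oxidative phosphorylation genes. With the cre covariate they were -0.23, 0.11, -0.11 and 0.02 in the same order, and no gene of these lists passed with either covariate. The share of adhering fat in these values was not tested.

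Cholesterol handling showed smaller changes, with 3 falls and 1 rise in 17 storage and efflux genes. The sterol hydroxylase Cyp27a1 (-0.50, adjusted p = 0.00982), the lipid droplet protein Plin3 (-0.38, adjusted p = 0.0152) and the liver X receptor Nr1h3 (-0.59, adjusted p = 0.0306) fell and Mylip, which degrades the LDL receptor, rose (0.30, adjusted p = 0.0407). Their calls ended without 1 array for Plin3 (diabetic 4), Nr1h3 (diabetic 1, 2, 3 and RBX 3, 4) and Mylip (diabetic 2, 3, 4 and RBX 2, 3, 4), and that of Mylip with quantile normalization.

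Among 25 oxidant enzymes and antioxidants 4 rose and 2 fell. The metallothionein Mt2, which binds zinc and scavenges oxidants, measured 51914, 45516, 41515 and 49066 in the diabetic mice, against 19863, 26075, 23947 and 19985 in the non-diabetic RBX mice (log2 fold change 1.07, SE 0.16, adjusted p = 0.000440). Mt2 and Hspa1b were the 2 of the 127 named genes that passed which kept their call in every alternative run. Its relative Mt1 rose as well (0.71, adjusted p = 0.0109), and both passed with the cre covariate, at 1.42 (adjusted p = 0.0427) and 1.32 (adjusted p = 0.0298). Nox4, an NADPH oxidase of the vessel wall (1.08, adjusted p = 0.00274), and the extracellular superoxide dismutase Sod3 (0.91, adjusted p = 0.0117) rose. The cytosolic Sod1 (-0.42, adjusted p = 0.0176) and the phagocyte oxidase subunit Ncf4 (-0.56, adjusted p = 0.0392) fell, and 1 of 3 other probe sets of Sod1 gave 0.05 (unadjusted p = 0.815). Without 1 array the calls ended for Sod1 (diabetic 4) and Ncf4 (diabetic 1, 2, 4 and RBX 2, 3, 4).

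Immediate early genes, which respond quickly to stimuli, had 5 rises and 1 fall among 29. Fosl2 (0.80, adjusted p = 0.00246), Klf6 (0.62, adjusted p = 0.00469), Ccn1 (1.31, adjusted p = 0.00844), Ier3 (0.54, adjusted p = 0.0204) and Jun (0.48, adjusted p = 0.0227) rose. Nr4a2 fell (-1.28, adjusted p = 0.0249), while its 3 other probe sets lay above 0 (0.13, 0.34 and 0.66, unadjusted p = 0.731, 0.269 and 0.05). Of the 3 other probe sets of Ccn1, 2 gave -0.45 and -0.76 (unadjusted p = 0.254 and 0.0594), and 1 of the 4 others of Klf6 gave -0.0096 (unadjusted p = 0.971). The call of Fosl2 and Ccn1 ended with the mean of probe sets, and without 1 array those of Ier3 (diabetic 2 and RBX 4), Jun (diabetic 2, 3 and RBX 1, 2) and Nr4a2 (diabetic 1, 2 and RBX 1, 4) ended. In the unfolded protein response 1 of 25 genes rose, the co-chaperone Dnajb9 (0.33, adjusted p = 0.0472), and its call ended in 17 of 22 alternatives.

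RNA processing genes gave 5 rises and 2 falls among 28. The splicing regulators Tra2b (0.46, adjusted p = 0.0021) and Srsf1 (0.34, adjusted p = 0.026), and Sfpq (0.59, adjusted p = 0.0178) and Luc7l3 (0.39, adjusted p = 0.0249), rose. Son (-0.41, adjusted p = 0.00484) and Srrm2 (-0.52, adjusted p = 0.0362), both of nuclear speckles, fell on the probe set used. Other probe sets disagreed for Son, 3 of whose 6 others gave 0.67, 0.27 and 0.83 (unadjusted p = 0.0319, 0.0235 and 0.0164). The rest of them gave 0.01, 0.18 and -0.23 (unadjusted p = 0.925, 0.4335 and 0.199), so most lay above 0. Probe sets that disagreed were also 1 of 5 others of Sfpq (-0.61, unadjusted p = 0.0224), 1 of 2 of Luc7l3 (-0.26, unadjusted p = 0.311) and 1 of 2 of Srrm2 (0.30, unadjusted p = 0.133). The call of Srrm2 ended with quantile normalization. Cytosolic ribosomal protein genes fell in 6 of 20 measured, by small steps, Rps24 (-0.47, adjusted p = 0.0119), Rps14 (-0.39, adjusted p = 0.0224), Rpl19 (-0.30, adjusted p = 0.025), Rpl4 (-0.31, adjusted p = 0.0319), Rps18 (-0.34, adjusted p = 0.0343) and Rps4x (-0.34, adjusted p = 0.0461). After quantile normalization none fell and the median was -0.06 in place of -0.24. Of 4 other probe sets of Rps24, 1 gave 0.62 (unadjusted p = 0.0142), and of 2 others of Rps18, 1 gave 0.08 (unadjusted p = 0.446). With 1 array left out the calls ended for Sfpq (diabetic 2), Luc7l3 (diabetic 1, 4 and RBX 1, 3), Srsf1 (diabetic 4) and Srrm2 (diabetic 1, 2, 4 and RBX 1, 3, 4), and the count of ribosomal falls was 1 to 6, lowest without diabetic mouse 4.

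**Figure D3:**
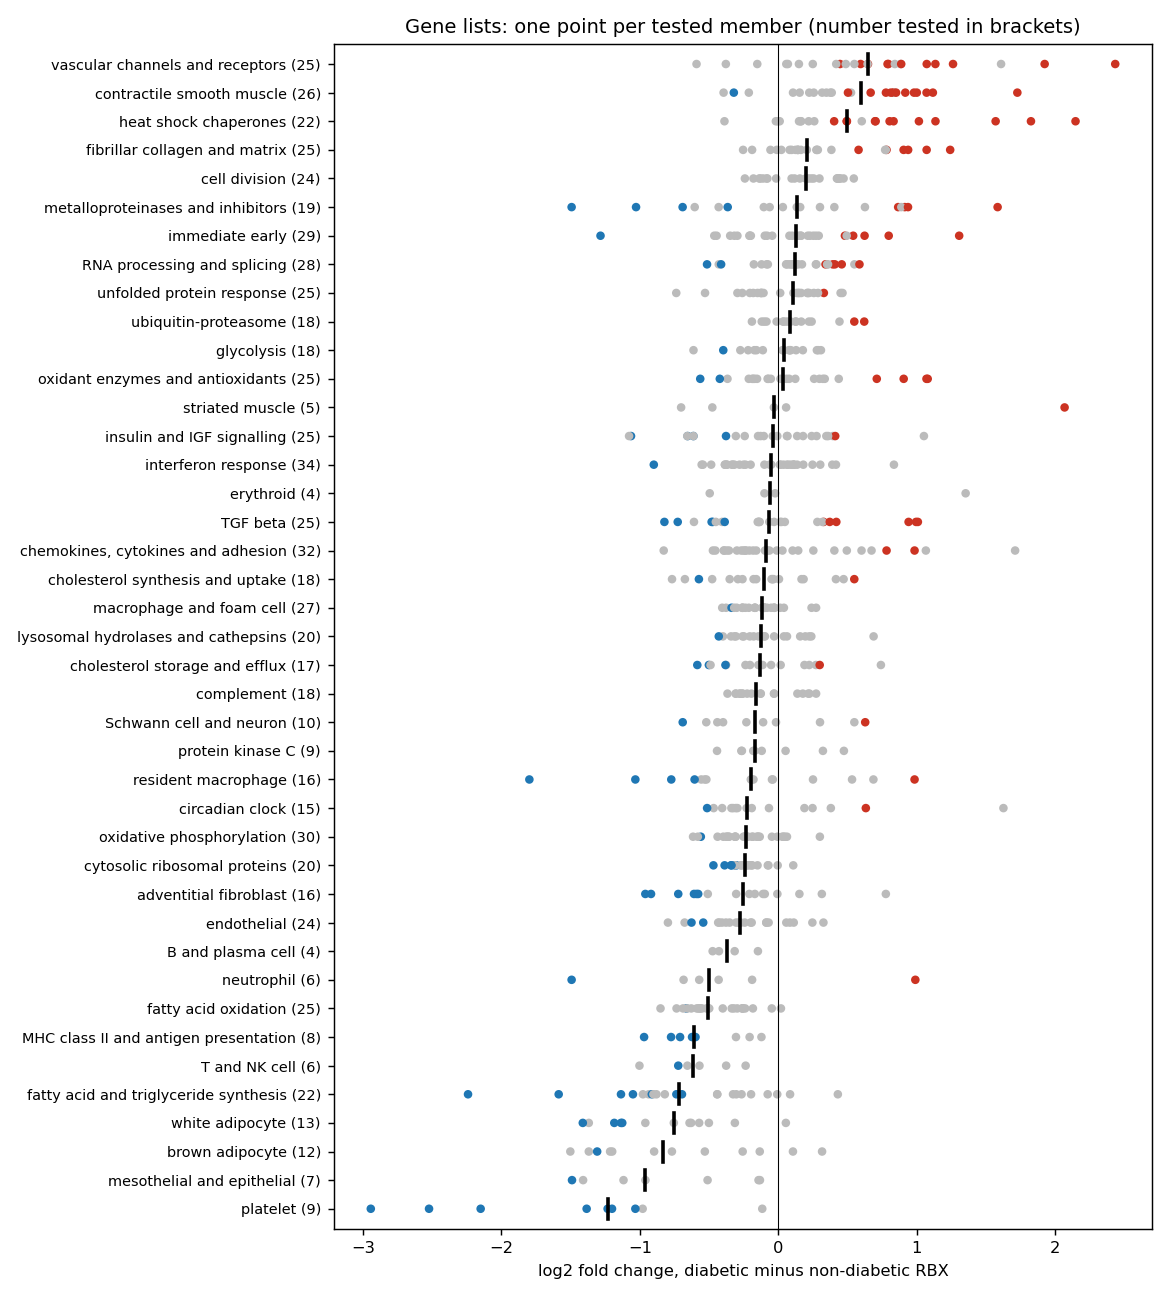
Log2 fold changes of diabetic minus non-diabetic RBX aorta (x axis) for every tested member of the 41 gene lists (rows, number tested in brackets), with a black bar at each median. Red members were higher and blue members lower at an adjusted p under 0.05; medians run from -1.23 for platelet genes to 0.64 for vascular channels and receptors.

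Neither the drug's target nor the disrupted gene passed. Prkcb, which encodes protein kinase C beta, measured 2085, 2081, 2637 and 2482 in the diabetic mice, against 2482, 2864, 2801 and 2293 in the non-diabetic RBX mice (log2 fold change -0.17, SE 0.20, adjusted p = 0.609). The groups overlapped. Apoe averaged 851 ± 207 in diabetic and 729.8 ± 66.4 in non-diabetic RBX mice (SD, n = 4 each; log2 fold change 0.19, SE 0.55, adjusted p = 0.861), and whether its probe set lies in the disrupted stretch was not checked here. None of the 9 measured genes of protein kinase C and related kinases passed in limma (3 at an unadjusted p under 0.05). Those of smallest p were the related kinase Pkn2 (0.47, adjusted p = 0.0537), the protein kinase C gene Prkch (-0.44, adjusted p = 0.0595) and the related kinase Prkd1 (0.32, adjusted p = 0.101). In the alternatives Pkn2 passed in 3 of 22 (lowest adjusted p = 0.0139) and Prkch in 5 (lowest adjusted p = 0.0277). After quantile normalization Prkch fell (adjusted p = 0.0448), and without non-diabetic RBX mouse 1 Pkn2 rose and Prkch fell. Among lists whose genes are not named here, none of 24 cell division genes and none of 18 complement genes passed (1 and 0 at an unadjusted p under 0.05 in limma), and 2 of 18 ubiquitin-proteasome genes rose.

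**Figure D4:**
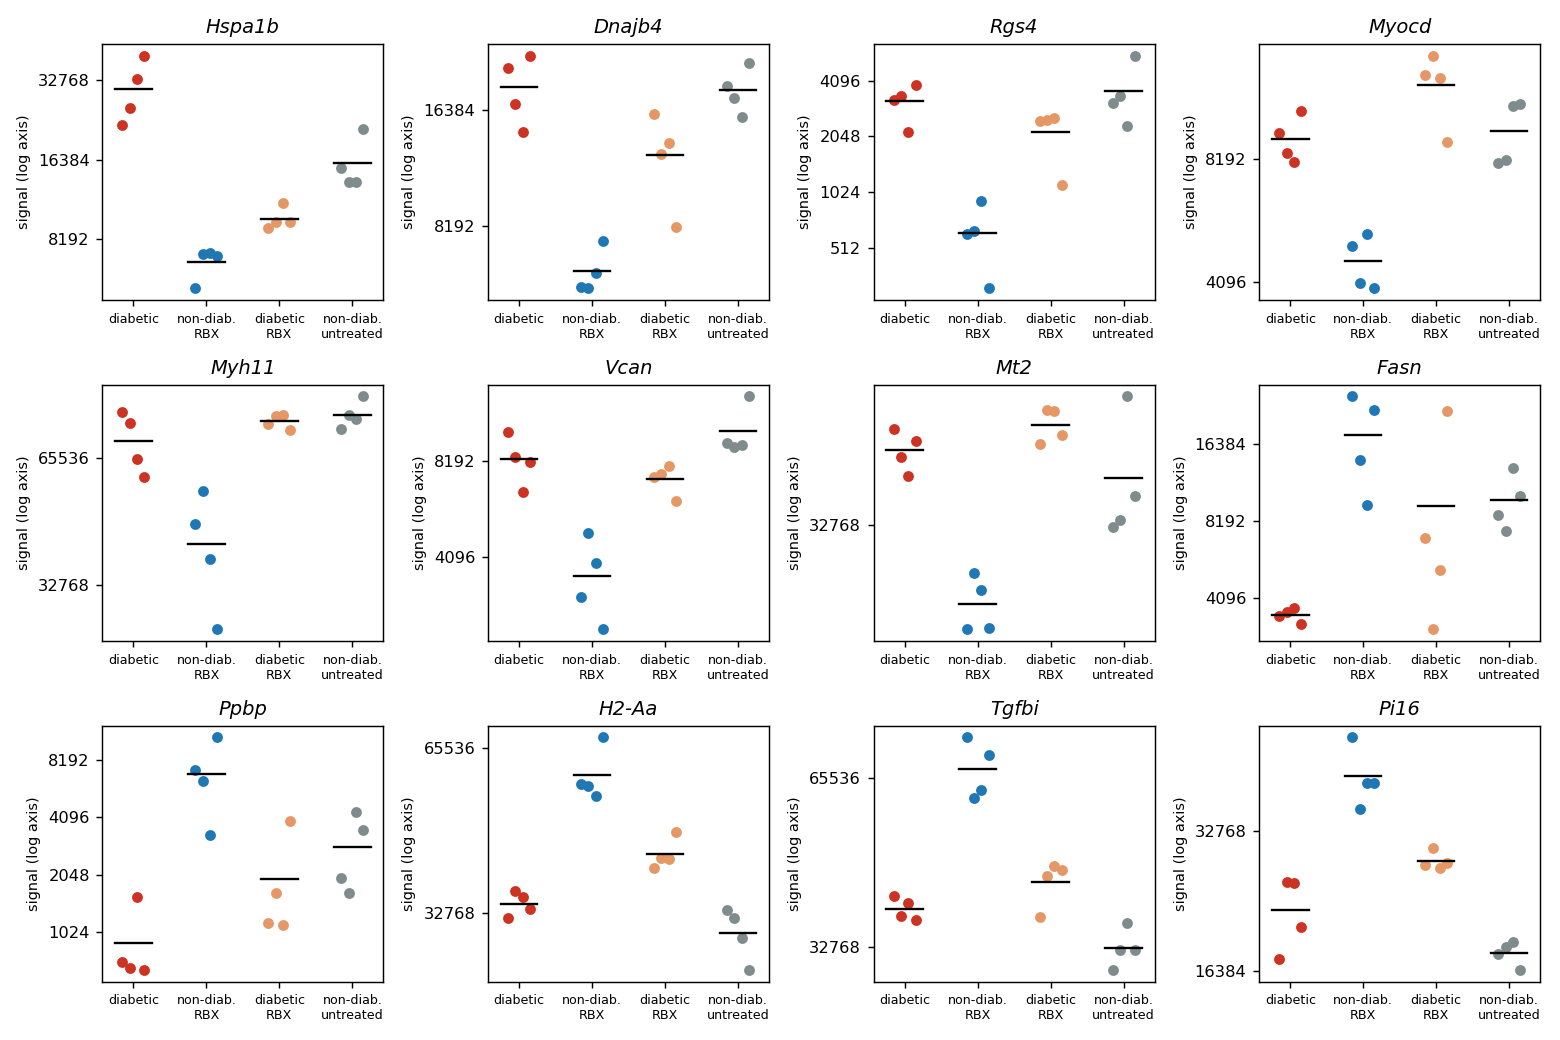
Signal of 12 genes named in the text in every mouse, on log2-spaced axes, with 1 point per mouse and a bar at the mean of each of the 4 groups. Diabetic and non-diabetic RBX mice do not overlap in any of the 12 genes.

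Both groups were also set beside untreated non-diabetic aorta. Those 2 comparisons share the 4 untreated arrays, so their values are given side by side without a measure of likeness. Against untreated mice 72 genes (0.652%) passed in diabetic and 3494 (31.6%) in non-diabetic RBX aorta. Hspa1b was 0.92 (adjusted p = 0.0202) in diabetic and -1.23 (adjusted p = 5.84e-05) in non-diabetic RBX mice, so that it passed above untreated aorta in the first and below it in the second. Saa3 was 0.75 (adjusted p = 0.334) in diabetic and -1.58 (adjusted p = 0.00309) in non-diabetic RBX mice. Rgs4 was -0.14 (adjusted p = 0.883) in diabetic and -2.58 (adjusted p = 2.27e-05) in non-diabetic RBX mice.

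Contractile and matrix genes were set beside untreated aorta in the same way. Myh11 was -0.22 (adjusted p = 0.584) in diabetic and -1.07 (adjusted p = 0.000149) in non-diabetic RBX mice, and Vcan was -0.29 (adjusted p = 0.471) in diabetic and -1.53 (adjusted p = 1.21e-05) in non-diabetic RBX mice. Mylk4 passed in both, at -1.39 (adjusted p = 0.00999) in diabetic and -2.50 (adjusted p = 1.84e-06) in non-diabetic RBX mice. Among the falls, H2-Aa was 0.18 (adjusted p = 0.386) in diabetic and 0.96 (adjusted p = 4.24e-06) in non-diabetic RBX mice, and Tgfbi was 0.23 (adjusted p = 0.258) and 1.05 (adjusted p = 2.55e-06) in the same order. Fasn was -1.46 (adjusted p = 0.0896) in diabetic and 0.78 (adjusted p = 0.158) in non-diabetic RBX mice, on either side of untreated aorta with neither passing, and Ppbp was -1.68 (adjusted p = 0.0649) and 1.26 (adjusted p = 0.0289) in the same order. Over lists, the contractile genes had medians of -0.42 in diabetic and -1.06 in non-diabetic RBX mice against untreated aorta, and the heat shock chaperones 0.03 and -0.48 in the same order. Medians above untreated aorta in both groups were those of MHC class II genes (0.12 and 0.69) and adventitial fibroblast genes (0.21 and 0.44). Platelet genes (-0.28 and 1.26) and genes of fatty acid and triglyceride synthesis (-0.08 and 0.53) had medians on either side of it.

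**Figure D5:**
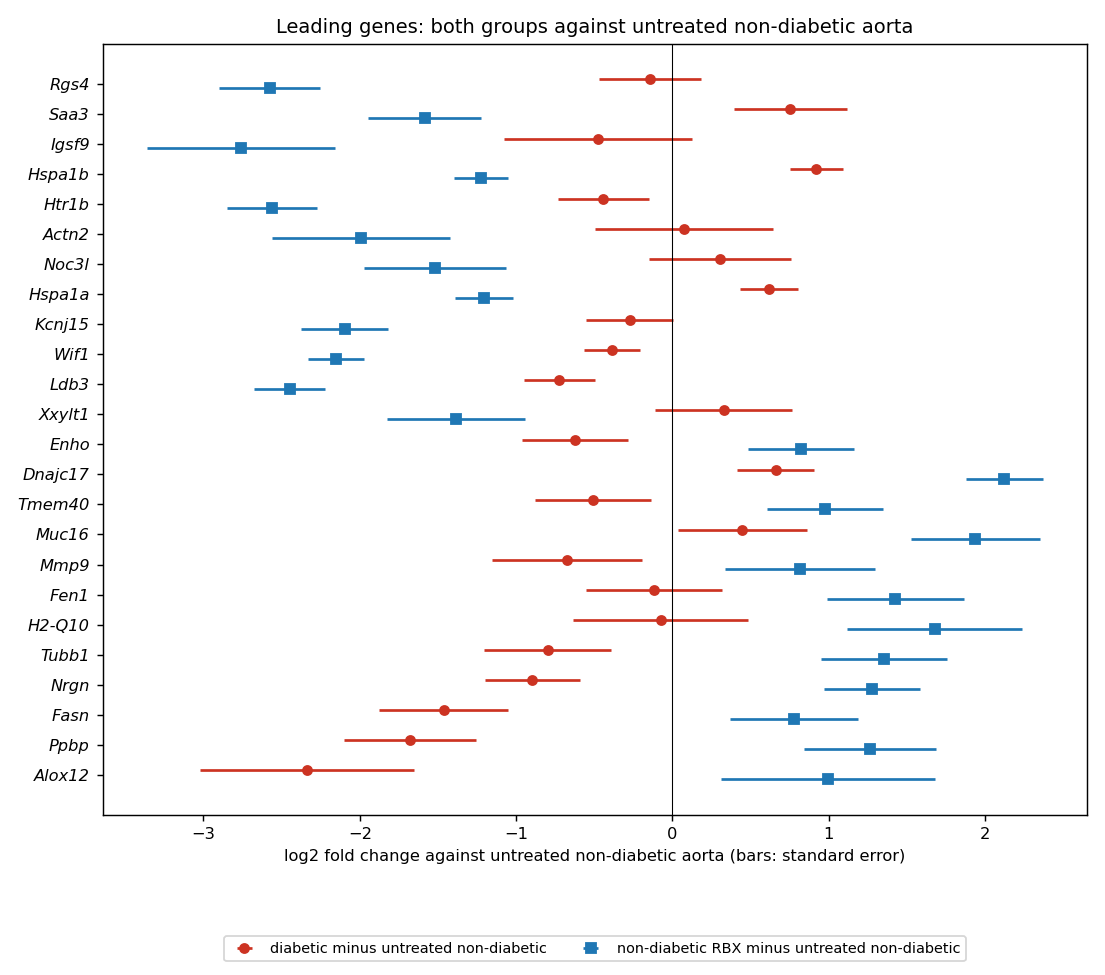
Log2 fold changes against untreated non-diabetic aorta with their standard errors, for diabetic (red circles) and non-diabetic RBX mice (blue squares), in the 24 leading genes ordered by their difference between these 2 groups. Both series share the 4 untreated arrays.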

How the data were processed

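Each array came from 1 mouse and held 45101 probe sets. Their deposited values were intensities, unlogged, computed by MAS5 per the submitters' processing notes (version not given in the sources used here). Leaving out 2% of values at each end, every array had a mean of 1500.01, so the authors had scaled arrays to a common mean before deposit, and bright probe sets are read relative to it. Per the labels' protocols, Trizol was used to extract RNA, and 2 ug of it was labelled. Detection calls were not used.

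A single symbol was given by the platform annotation for 34958 probe sets, several for 932 and none for 9211, beside 64 controls. Log2 was taken with no offset. Probe sets whose mean log2 over the 16 arrays lay above the median (381.5 as signal) were kept, and the brightest for each gene gave 11042 genes. The test was limma 3.58.1 (R 4.3.3, data.table version 1.17.8) with 4 group means over 16 arrays, 12 residual degrees of freedom and an intensity trend. Two-sided p-values were adjusted over all genes (Benjamini-Hochberg), and a gene rose or fell at an adjusted p under 0.05. The number of arrays limits the precision. The fit was tested on simulated data. Alternatives changed the scaling, filter, offset, probe set rule, variance model, array weights, covariates, groups fitted and arrays.

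The members and lists were chosen with earlier results of these data known. Named genes are Prkcb, Apoe, the 12 largest rises and 12 largest falls whose groups did not overlap, and from each list described up to 6 passing members of smallest p, or else 3. Clones and predicted genes were counted and not named. Promoters came from RefSeq (GRCm38.p6), at the start of lowest coordinate where a gene had several. List counts without non-diabetic RBX mouse 4 were added after seeing the data.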

Additional observations from a re-analysis of the deposited data

Results flagged for a closer look

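Of 276 groups of 4 values examined, 11 held 1 array that stood apart from the other 3, where the ratio of its gap to the whole range of the group exceeded Dixon's 95% critical value. Chance flags about 1 in 20 groups. In diabetic mice, mouse 3 stood high for the platelet genes Ppbp (ratio 0.9312, 1566 against 643 to 706 in the others) and Treml1 (0.8785, 1095 against 508 to 580). Diabetic mouse 1 stood low for H2-Ab1 (0.9096, 7199 against 9694 to 9942) and Ncf4 (0.8293, 1527 against 2328 to 2493).

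In non-diabetic RBX mice, mouse 4 stood apart in 4 measures. It was high for Dnajc17 (0.9529, 17097 against 10132 to 10460) and low for Abcc9 (0.8405, 8716 against 17260 to 18882) and Sod3 (0.9065, 4742 against 10658 to 11268). Its score on the first principal component was 51.9 against 21.7 to 25.6 (ratio 0.8719). Non-diabetic RBX mouse 3 stood apart on the second component (0.8928, -29.9 against 10.4 to 15.2) and was low for Tmem40 (0.9045, 652 against 1004 to 1042). Non-diabetic RBX mouse 1 was low for Hspa1b (0.8833, 5336 against 7052 to 7278), which widens its distance to the diabetic mice.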

How the results depend on the processing

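Beside the values in the results, 22 alternatives were run. Rises and falls were 683 and 628 with centring on the 75th percentile, 591 and 392 with the mean of probe sets, 1205 and 750 with all probe sets apart, 476 and 367 with array weights, and 303 and 258 with the 2 groups fitted alone. With the cre covariate they were 3 and 1, and with the Actb ratio covariate 13 and 5. With 1 array left out, rises ranged from 460 to 787 and falls from 365 to 732. Signs turned for Rps4x (0.0215 with quantile normalization, 0.0214 with cre), for Timp2 (0.077) and Son (0.1892) with the mean of probe sets, and with the Actb ratio for Car3 (0.1803), Cidec (0.0548) and Dgat2 (0.1548). The group difference on principal component 2 was 4.7632 after quantile normalization, against -11.2 without it, but the sign of a component is arbitrary, so this is no turn of direction. The causes were not tested. Of the 127 named genes that passed, 58 lost their call in no alternative but the 2 covariates, and 74 kept it with each array left out. A turn of sign was not counted as a loss, so the 58 include Son. With the filter at the 70th percentile 111 of the 127 were tested, and the rest were counted over the other alternatives.

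With a replicate block, 757 genes rose and 595 fell. Deviations of same-numbered mice from their group means correlated at 0.181, 0.0528, 0.0418 and -0.00599. The labels give replicate numbers and state no pairing, and these correlations cannot show how the mice were arranged. The block ended the call of 7 of the genes named in the text. The number of arrays and the low signal of genes near the filter, such as Alox12 and Igsf9, limit what can be called.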
